A study of Mus musculus with 7 samples.

Results

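Cytosolic ribosomal protein genes encode the proteins that, with ribosomal RNA, make up the ribosomes of the cytoplasm. They were taken from the gene count table as protein-coding genes whose symbols begin with Rpl, Rps or Rplp followed by a digit, leaving out the Rps6k kinases. The rule took 93 of the 54532 genes in the table, 59 with large-subunit symbols and 34 with small-subunit symbols, on 20 chromosomes. It left out ribosomal protein genes whose symbols differ, such as Rpsa, Fau and Rack1, and it took Rps19bp1, which encodes a protein that binds Rps19 and is not part of the ribosome, and 8 protein-coding genes with pseudogene-type symbols ending in -ps and a digit. The libraries are poly-A RNA-seq of mouse retina, 4 from mice infused with Ang II (angiotensin II, a peptide hormone that constricts vessels and raises blood pressure) and 3 from mice infused with saline, all sampled at day 28. The series text gives the mice of both groups as ApoE-/-, which lack apolipoprotein E, while each sample's own label calls its genotype WT. Age is not given in the sources used here. No label says that the libraries came from separate animals, so the p-values measure the spread between these libraries, part of which may be technical.

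Each ribosome has a large subunit, where peptide bonds are formed, and a small subunit, where the mRNA is decoded. The proteins are needed in equal numbers of copies, apart from the stalk proteins. In mammals, ribosomal protein mRNAs start with a C followed by a run of pyrimidines, the terminal oligopyrimidine or TOP motif, through which the mTORC1 kinase pathway raises or lowers their translation together. Translation of TOP mRNAs can thus change with no change in their amount, and RNA-seq reads the amount only. Most of these genes have left many processed pseudogenes in mammalian genomes, which are intron-less copies of the mRNA, so reads from a gene and from its copies can be hard to tell apart. In the retina, photoreceptors renew their outer segments throughout life and translate large amounts of opsin and other phototransduction proteins.

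Library totals ran from 15374638 to 17563493 counts in Ang II and from 14655431 to 16679829 counts in saline. Saline replicate 2 was the shallowest library and had 21260 genes detected, against 24024 to 24846 in the other 6 libraries. Apoe itself had 253 to 406 counts in Ang II libraries and 150 to 304 counts in saline libraries, so the counts do not settle which genotype label holds. Retinal identity was plain from the 7 rod markers, which summed to 49590 to 61523 CPM (counts over the library's size, which was scaled by TMM, brought to a common total) in Ang II and to 62547 to 67019 CPM in saline. The 8 pigment epithelium markers summed to 613 to 1131 CPM in Ang II and to 112 to 540.5 CPM in saline, and 4 lens markers ran from 1.03 to 2121 CPM in Ang II and from 32.3 to 456 CPM in saline. The rod and pigment epithelium ranges did not overlap between the groups. Nor did those of 4 microglia markers, at 36.9 to 43.5 CPM in Ang II and 26.3 to 35.5 CPM in saline. The ranges of the other cell types examined overlapped. None of these marker genes was at 0 in every library. The part of this mix of cells in the values below was not tested, and fewer cells of a type and less RNA per cell cannot be told apart in bulk tissue.

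Several members carry a pyrimidine run near their annotated starts, though the search below does not show that their mRNAs begin with it. RefSeq promoter sequences were found for 65 of the 93 genes. The letters CTTTCC, read on the sense strand between 10 bases before and 16 bases after an annotated start, were in 11 of the 65 (16.9%), against 1.30% of 27025 genes in the same table. The next windows each hold 20 bases before and 30 bases from the RefSeq start, with CTTTCC in capitals. They are shown because they carry the shared motif, and because Rpl38, Rpl28, Rps10, Rps27 and Rps27rt recur below. Their places in GRCm38.p6 (mm10) are chr11:114668560-114668609 on the plus strand for Rpl38, chr7:4792945-4792994 on the plus strand for Rpl28, chr17:27635215-27635264 on the minus strand for Rps10, chr3:90213619-90213668 on the minus strand for Rps27 and chr9:114982710-114982759 on the minus strand for Rps27rt.
Rpl38: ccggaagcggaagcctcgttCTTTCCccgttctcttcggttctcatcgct
Rpl28: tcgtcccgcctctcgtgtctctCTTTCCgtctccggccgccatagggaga
Rps10: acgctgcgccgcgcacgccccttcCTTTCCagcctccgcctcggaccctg
Rps27: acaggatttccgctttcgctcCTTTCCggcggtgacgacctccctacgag
Rps27rt: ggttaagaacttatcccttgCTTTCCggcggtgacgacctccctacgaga
Rps27rt reads as Rps27 does from the capitals on and differs before them. Over the whole 300-base promoters (250 bases before to 50 after the start), searched on both strands, CCGGAAG, a core bound by ETS factors, was in 25 of the 65 genes (38.5%, against 9.93% of all genes). The letters TCTCGCGA were in 11 (16.9%, against 1.13%), and GGGCGG, the GC box bound by Sp factors, was in 40 (61.5%, against 38.2%). The GC box and CTTTCC overlapped another motif in 1 promoter each. Matches of letters are descriptions and were not tested as binding sites.

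Summed over each subunit, the share of retinal RNA that ribosomal protein genes held in Ang II lay within the range of the saline libraries. Large-subunit genes held 0.650%, 0.606%, 0.638% and 0.663% of all counts in Ang II replicates 1 to 4, against 0.629%, 0.574% and 0.689% in saline replicates 1 to 3. All 4 Ang II shares lay between the lowest and the highest saline share. The 4 Ang II libraries had a mean of 0.639% ± 0.0244 (SD), and the 3 saline libraries a mean of 0.631% ± 0.0571. Small-subunit genes held 0.435%, 0.413%, 0.426% and 0.434% in Ang II, against 0.429%, 0.394% and 0.468% in saline, with the same order of the saline libraries. Their mean was 0.427% ± 0.0100 (SD, n = 4) with Ang II and 0.430% ± 0.0369 (SD, n = 3) with saline. The direction of these differences turned on single libraries. Ang II minus saline was 0.0084 percentage points for the large subunit, and -0.0197 without saline replicate 2. It was -0.0030 for the small subunit, 0.0157 without saline replicate 3 and 0.0016 without Ang II replicate 2. Wilson 95% intervals of the large-subunit share were 0.571% to 0.578% for saline replicate 2 and 0.685% to 0.693% for saline replicate 3, so counting error was far smaller than the distance between these libraries. These intervals cover counting error alone. The balance between the subunits was steadier than their sum. Small-subunit counts were 0.670, 0.683, 0.668 and 0.655 of large-subunit counts in Ang II, against 0.682, 0.686 and 0.679 in saline.

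**Figure D1:**
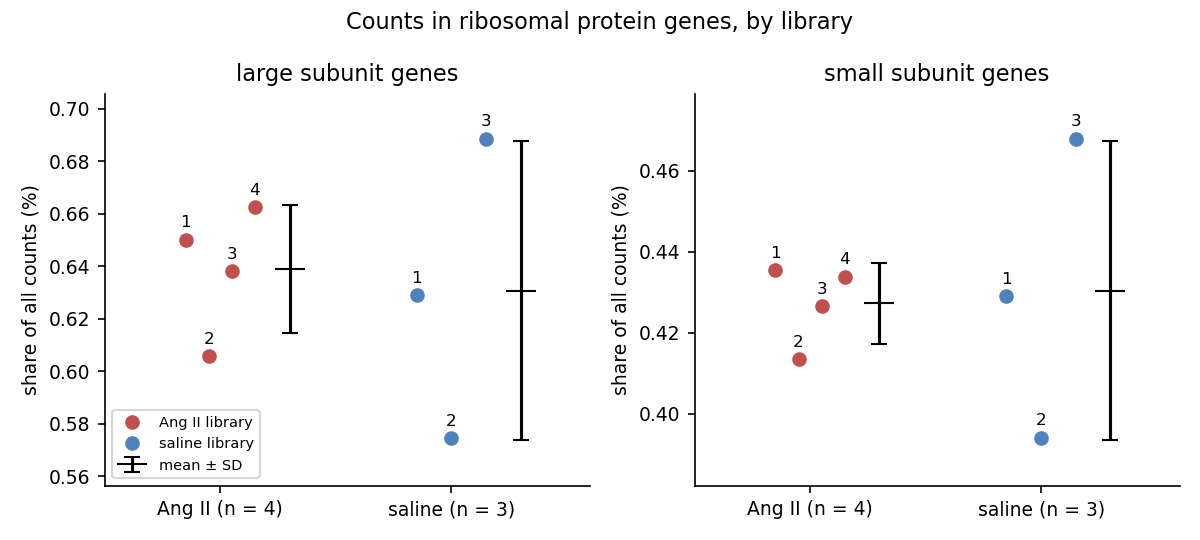
Share of all counts (%, y axis, not starting at 0) in large-subunit genes (left) and small-subunit genes (right), with 1 point per library labelled by its replicate number, Ang II left of saline, and the mean ± SD beside each group. Saline replicates 2 and 3 are the lowest and the highest libraries on both sides, and the 4 Ang II libraries lie between them.

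Gene by gene, 0 of the 85 members that passed the filter on low counts were called by edgeR at an adjusted p under 0.05, beside 0.0% of all 17078 genes tested. The filter kept 51 of the 59 large-subunit genes and all 34 small-subunit genes. At an unadjusted p under 0.05 there were 6 members, all on the lower side in Ang II, among them Rpl21, Rpl27, Rpl29, Rpl37 and Rps27a. That is 6 of 85, beside 4.62% of all genes tested in either direction and 1.72% on the lower side. The 2 groups did not overlap, with every Ang II library below every saline library, in 6 members (among them Rpl10a, Rpl27, Rpl29, Rps3 and Rps19bp1), beside 2.73% of all genes. The opposite arrangement was found in 0 members, beside 3.18% of all genes. The adjusted p of all 6 members at an unadjusted p under 0.05 was 0.982, and the smallest adjusted p of any gene was 0.226 (edgeR, Benjamini-Hochberg over all genes tested).

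As a group the members sat near 0. The median log2 fold change of Ang II over saline was -0.02 for large-subunit genes, with 28 below 0 and 23 above, and -0.05 for small-subunit genes, with 24 below 0 and 10 above. Over all genes tested it was -0.0048, with 51.1% below 0. The middle of the large-subunit values ran from -0.08 to 0.08 (quartiles) and that of the small-subunit values from -0.13 to 0.01. With library size alone in place of TMM they were 0.026 and -0.00405, but that scaling moved all genes alike, to a median of 0.042, and both subunits stayed below it. The medians turned on single libraries. Without saline replicate 3 they were 0.06 and 0.01, with 17 of 51 and 16 of 34 below 0, beside 0.01 for all genes, and without saline replicate 2 they were -0.08 and -0.11, with 39 of 51 and 27 of 34 below 0. The large-subunit median was also on the other side of 0 without Ang II replicate 2 (0.01) and without Ang II replicate 3 (0.01). For most members the data bound the size of any difference. The 95% interval lay within 1.5-fold either way for 66 of the 85 members, 39 of the large subunit and 27 of the small subunit, and within 2-fold for 73. The 12 whose interval reached past 2-fold were Rpl7a, Rpl10-ps3, Rpl17, Rpl23a, Rpl24, Rpl27-ps3, Rpl38, Rps10, Rps27, Rps27a, Rps27rt and Rps28.

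**Figure D2:**
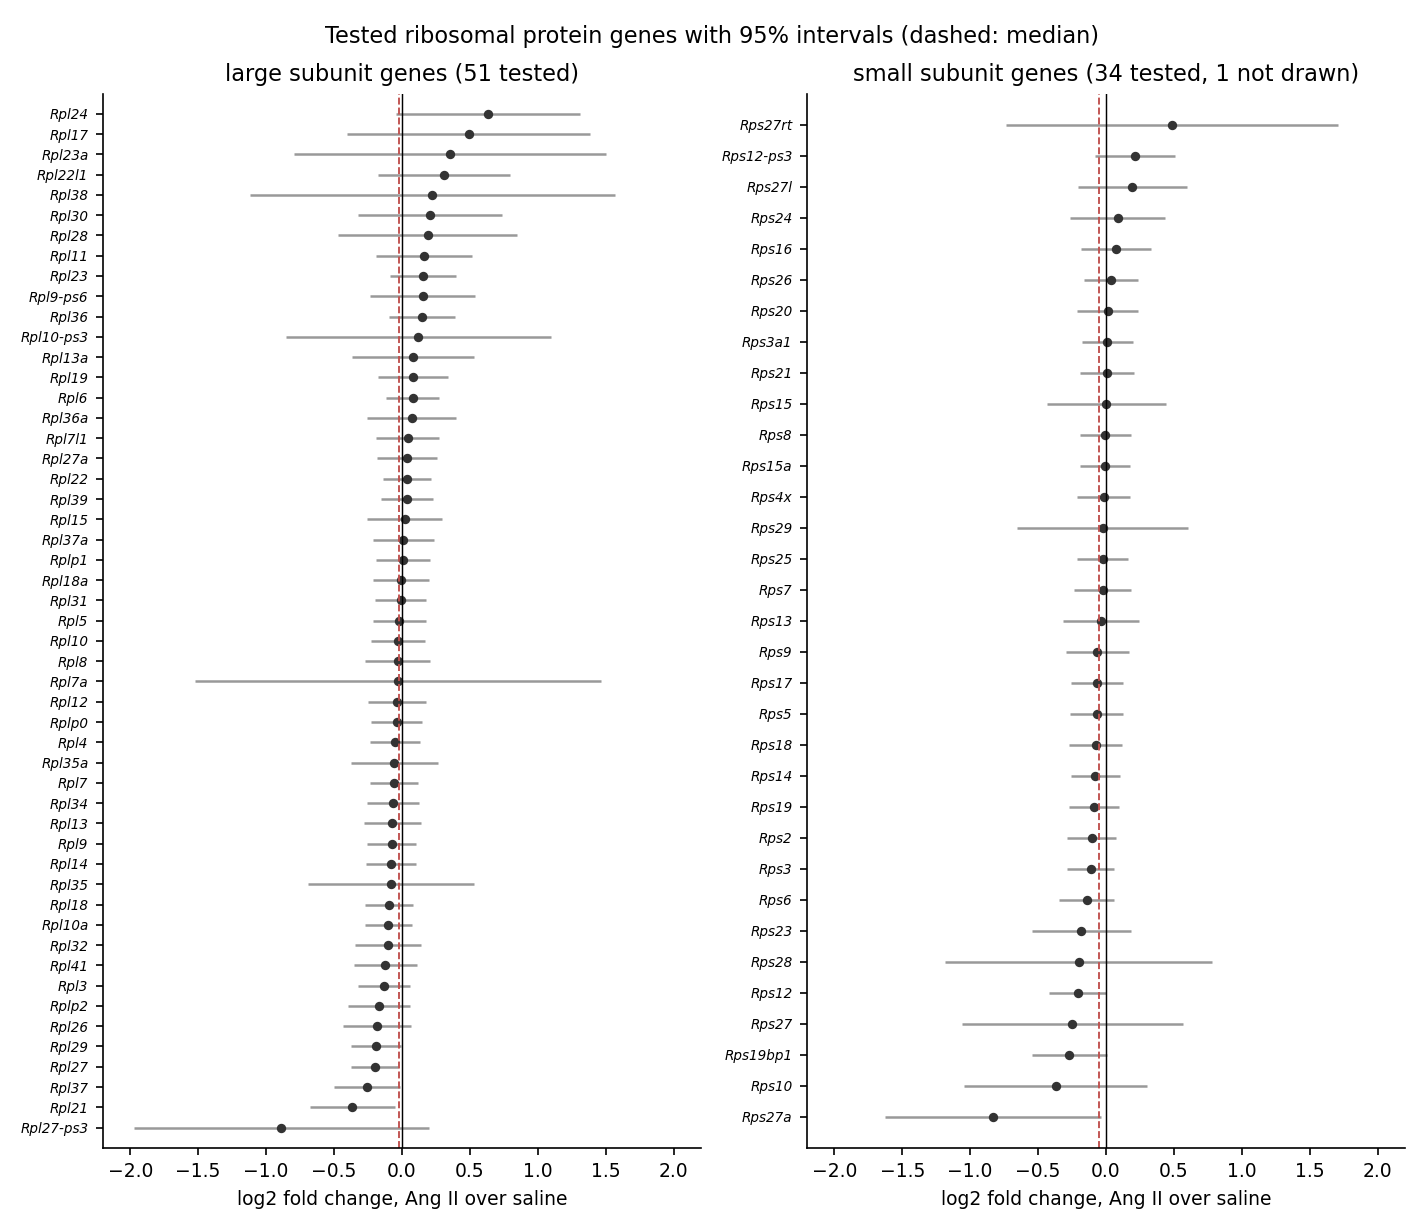
Log2 fold change of Ang II over saline (x axis) with its 95% interval for the 51 tested large-subunit genes (left) and the tested small-subunit genes (right, 1 of the 34 not drawn), 1 gene per row, sorted by value. The dashed lines mark the medians, -0.02 and -0.05, against -0.0048 for all genes tested (0.026 and -0.00405 with library size alone, against 0.042), and intervals are narrow for most genes and wide for 12.

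Among the large-subunit genes, the acidic stalk, which recruits the elongation factors, was represented by Rplp0, Rplp1 and Rplp2. Rplp1 had the highest level per length of all members, 537 CPM per kilobase of deposited gene length. It was at 276, 235, 273 and 289 CPM in Ang II replicates 1 to 4, against 272, 248 and 281 CPM in saline replicates 1 to 3. The groups overlapped throughout, with a log2 fold change of 0.01 ± 0.09 (SE). Rplp0, the stalk base, averaged 207 ± 17.8 CPM in Ang II and 212 ± 6.41 CPM in saline, with a log2 fold change of -0.04 ± 0.09. Rplp2 was at 70.0, 69.9, 91.0 and 81.7 CPM in Ang II, against 81.8, 86.2 and 96.0 CPM in saline, with a log2 fold change of -0.17 ± 0.11. Rpl4 and Rpl36 followed Rplp1 in level per length, at 224 and 216 CPM per kilobase. Rpl4, whose protein lines the exit tunnel, averaged 442 ± 15.3 CPM in Ang II and 458 ± 35.7 CPM in saline. Rpl36 averaged 86.2 ± 8.62 CPM in Ang II and 77.7 ± 11.9 CPM in saline (SD, n = 4 and 3 throughout). Rpl3, near the site of peptide bond formation, averaged 356 ± 29.4 CPM in Ang II and 390.1 ± 14.2 CPM in saline. For Rpl3 the means differed by more than the SD of either group, yet none of these genes passed the test, with edgeR adjusted p of 0.982 or more.

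The large-subunit genes of smallest p were Rpl27, Rpl21, Rpl37, Rpl29 and Rpl24. Rpl27 was at 102, 106, 97.7 and 109 CPM in Ang II replicates 1 to 4, against 115, 123 and 118 CPM in saline replicates 1 to 3. Every Ang II library was below every saline library, by a modest step, and the log2 fold change was -0.20 ± 0.08 (unadjusted p = 0.0248, edgeR). Rpl29 was at 88.1, 91.8, 91.9 and 84.4 CPM in Ang II, against 97.2, 111 and 96.9 CPM in saline, again with no overlap. Its log2 fold change was -0.19 ± 0.09 (unadjusted p = 0.0400, edgeR). Rpl37 was at 85.8, 79.0, 89.8 and 89.6 CPM in Ang II, against 83.4, 123 and 102 CPM in saline. Here saline replicate 1 lay among the Ang II libraries, and the log2 fold change of -0.26 ± 0.11 (unadjusted p = 0.0399, edgeR) was -0.11 without saline replicate 2. Rpl21 was at 28.9, 28.8, 34.0 and 28.9 CPM in Ang II, against 45.8, 28.2 and 42.4 CPM in saline. Saline replicate 2 was its lowest library and the other 2 saline libraries its highest, and the log2 fold change was -0.36 ± 0.15 (unadjusted p = 0.0262, edgeR). Under the alternatives tried, Rpl21 was the sole member called, by limma-voom with quality weights, at -0.56 with an adjusted p of 0.0257. With reads of its copies added it stood at -0.05 ± 0.15. Rpl24, the gene mutated in Belly spot and tail mice, was counted at only 1.83 to 4.04 CPM in Ang II and 1.65 to 2.48 CPM in saline, with a log2 fold change of 0.63 ± 0.32 (unadjusted p = 0.0643, edgeR).

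Rpl5 and Rpl11, which as free proteins bind and restrain MDM2 when ribosome assembly fails, were both near 0. Rpl5 averaged 177 ± 11.2 CPM in Ang II and 179 ± 17.1 CPM in saline, with a log2 fold change of -0.02 ± 0.09. Rpl11 was at 138, 118, 142 and 148 CPM in Ang II, against 136, 85.9 and 144 CPM in saline. Saline replicate 2 stood below the other 6 libraries, and the log2 fold change of 0.16 ± 0.16 was -0.04 without it. Rpl13a, which in human monocytes also represses inflammatory mRNAs outside the ribosome, averaged 11.1 ± 2.86 CPM in Ang II and 10.5 ± 2.12 CPM in saline. Another annotated gene that shares its sequence, Gm45713, overlaps it on the same strand, and the part of this overlap in its counts was not tested. Rpl10a, a surface protein of the large subunit, was at 256, 231, 245 and 255 CPM in Ang II, against 262, 263 and 267 CPM in saline. The groups did not overlap, though the step was small next to the spread within Ang II, and the log2 fold change was -0.10 ± 0.08 (unadjusted p = 0.246, edgeR).

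On the small-subunit side, Rps3, which also acts in DNA repair, was at 240.1, 247, 244 and 246 CPM in Ang II, against 253, 259 and 280.5 CPM in saline. The groups did not overlap, and the log2 fold change was -0.11 ± 0.08 (unadjusted p = 0.183, edgeR). Rps19bp1 was at 15.4, 14.3, 16.4 and 15.1 CPM in Ang II, against 17.2, 17.6 and 20.4 CPM in saline, also with no overlap. Its log2 fold change was -0.27 ± 0.13 (unadjusted p = 0.0576, edgeR). Its partner Rps19, the gene mutated most often in Diamond-Blackfan anaemia in humans, averaged 86.8 ± 4.80 CPM in Ang II and 92.3 ± 4.96 CPM in saline.

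Rps27a encodes ubiquitin fused to a small-subunit protein and had the lowest log2 fold change of the subunit, -0.83 ± 0.32 (unadjusted p = 0.0425, edgeR). It was at 46.3, 45.1, 66.0 and 55.0 CPM in Ang II replicates 1 to 4, against 141, 57.5 and 84.5 CPM in saline replicates 1 to 3. Saline replicate 1 stood far above the other libraries and saline replicate 2 lay within the Ang II range. Without saline replicate 1 the log2 fold change was -0.42, and without saline replicate 2 it was -1.09. Rps6, whose protein is phosphorylated downstream of mTORC1, averaged 248 ± 24.2 CPM in Ang II and 273 ± 16.2 CPM in saline, with a log2 fold change of -0.14 ± 0.10. Rps15, which contacts the decoding site, had the highest level per length of the small-subunit genes, 316 CPM per kilobase. It was at 192, 175, 226 and 205 CPM in Ang II, against 219, 132 and 245 CPM in saline, so that all 4 Ang II libraries lay between saline replicates 2 and 3. Rps3a1 was next at 224 CPM per kilobase and averaged 219.9 ± 12.6 CPM in Ang II and 218 ± 17.1 CPM in saline.

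Some members share most of their sequence with another gene, and for several of these the split of counts between the copies varied widely between libraries. The clearest case was Rps27 (chr3:90212522-90213651) and Rps27rt (chr9:114982366-114982739, both mm10), a single-exon retrogene. Their coding sequences are identical over all 255 bases. Rps27l, the third member of the family, which has its own introns, differs from them at 61 of the 255 bases (76.1% identity). The coding sequences, read from GENCODE M21 on mm10, are shown because the first belongs to both genes, and capitals in the second mark bases that differ from the first.
Rps27: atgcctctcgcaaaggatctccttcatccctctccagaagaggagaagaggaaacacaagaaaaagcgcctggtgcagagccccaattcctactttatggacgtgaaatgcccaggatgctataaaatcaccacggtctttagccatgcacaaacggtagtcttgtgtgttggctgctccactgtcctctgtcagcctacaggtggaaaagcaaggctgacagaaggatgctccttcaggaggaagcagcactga
Rps27l: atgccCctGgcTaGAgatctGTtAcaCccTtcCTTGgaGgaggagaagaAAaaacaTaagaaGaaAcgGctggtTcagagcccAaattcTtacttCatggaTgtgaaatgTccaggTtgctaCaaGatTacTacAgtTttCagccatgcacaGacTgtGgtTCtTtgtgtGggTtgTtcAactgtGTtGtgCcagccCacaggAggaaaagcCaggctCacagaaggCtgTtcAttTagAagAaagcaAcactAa
Rps27rt took 60.4%, 60.4%, 36.1% and 51.9% of the counts of the pair in Ang II replicates 1 to 4, against 19.97%, 33.6% and 67.0% in saline replicates 1 to 3. The share thus ran from the lowest to the highest of all libraries within saline alone. The sum of the pair was 2835, 2154, 2057 and 2062 counts in Ang II, against 2018, 1907 and 2058 counts in saline, and only Ang II replicate 1 stood apart. Taken singly, Rps27 had a log2 fold change of -0.25 ± 0.33 and Rps27rt of 0.49 ± 0.48, and the sum had 0.09. Rps27l averaged 9.60 ± 0.739 CPM in Ang II and 8.37 ± 2.10 CPM in saline, with a log2 fold change of 0.20 ± 0.19.

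A second identical pair was on chromosomes 10 and 19. Rps12 and the protein-coding Rps12-ps3 have identical coding sequences over 399 bases. Rps12-ps3 took 51.2%, 41.5%, 42.7% and 41.3% of their sum in Ang II, against 42.4%, 36.5% and 32.3% in saline. The log2 fold change was -0.21 ± 0.10 for Rps12 and 0.22 ± 0.14 for Rps12-ps3, opposite in sign, on sums of 2110, 2035, 1666 and 1809 counts in Ang II, against 1925, 1766 and 1791 counts in saline. Rpl10 and Rpl10-ps3 have 0 differences over 645 bases, and there nearly all counts lay with Rpl10, at 125 ± 12.7 CPM in Ang II and 128 ± 7.51 CPM in saline. Rpl10-ps3 averaged 1.16 ± 0.393 CPM in Ang II and 1.08 ± 0.644 CPM in saline. Rpl9 and Rpl9-ps6 differ at 1 of 579 bases, and Rpl9-ps6 averaged 18.8 ± 4.52 CPM in Ang II and 16.9 ± 2.23 CPM in saline. The fourth tested gene with such a symbol, Rpl27-ps3, was at 0.367 to 1.27 CPM in Ang II and 0.681 to 1.61 CPM in saline.

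Across the table, 541 rows outside the members that are annotated as pseudogenes share at least 50 windows of 50 bases with a member. Together these copies held 6.74% to 7.70% of the counts of members and copies. For a typical tested member they held 2.42% (median), and 10 tested members had no copy assigned. Members with -ps or rt symbols were assigned none by rule and enter this median at 0. Rpl10-ps3, Rpl27-ps3, Rpl9-ps6, Rps12-ps3 and Rps27rt are thus among the 10, although Rps12-ps3 shares 100% of its 100-base windows with other genes. Genes of other kinds that share windows were not counted as copies, as with Wdr89, which shares 242 windows with Rplp2. For 4 tested members the copies held more counts than the gene itself, namely Rps10, Rpl17, Rpl21 and Rpl24. Rps10 had 32, 47, 29 and 70 counts in Ang II replicates 1 to 4, against 58, 54 and 50 counts in saline replicates 1 to 3. Its processed pseudogene Rps10-ps2 had 1024, 928, 721 and 766 counts in Ang II, against 941, 535 and 900 counts in saline. Its 2 pseudogenes held 91.3% to 97.1% of its summed counts, depending on the library, and the log2 fold change of -0.37 ± 0.32 for Rps10 became 0.02 ± 0.13 with copies added. Rps10 itself had the lowest level per length of all tested members, 1.31 CPM per kilobase, against a median of 61.5 CPM per kilobase. Rpl24, at 2.57 CPM per kilobase, had 52.5% of its summed counts in copies. Both genes are also overlapped on the same strand by another annotated gene that shares their sequence. For Rps10 this is RPS10-NUDT3 over 407 windows and for Rpl24 Gm28037 over 436 windows. The same holds for Rpl13a, with Gm45713 over 573 windows, and for Rpl36al, with Gm49383 over 284 windows. These overlapping genes had 0 counts in every library, which allows up to 3 counts in each. How reads in such overlaps were counted is not given in the sources used here, and their part in the low counts was not tested.

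Rpl17 and its copy stood at opposite ends in a single library, and whether reads passed between them was not tested. It had 1607, 646, 680 and 624 counts in Ang II replicates 1 to 4, against 643, 567 and 545 counts in saline replicates 1 to 3. The pseudogene Rpl17-ps10 had 602, 1366, 993 and 1494 counts in Ang II, against 1376, 764 and 1483 counts in saline. Ang II replicate 1 was therefore the highest library for the gene and the lowest for its copy. The log2 fold change of Rpl17 was 0.49 ± 0.36, 0.09 without Ang II replicate 1, and 0.07 ± 0.10 with copies added. Rpl38, which patterns the axial skeleton in mice through selective translation, had 865, 508, 1010 and 887 counts in Ang II, against 773, 215 and 1041 counts in saline. Its copy Rpl38-ps2 had 203, 229, 206 and 255 counts in Ang II, against 200, 305 and 212 counts in saline. Saline replicate 2 was thus lowest for Rpl38 and highest for the copy, but the copy was higher by far fewer counts than the gene was lower. Adding copies took the log2 fold change of Rpl38 to 0.08 ± 0.27, against 0.22 ± 0.53 for the gene alone.

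**Figure D3:**
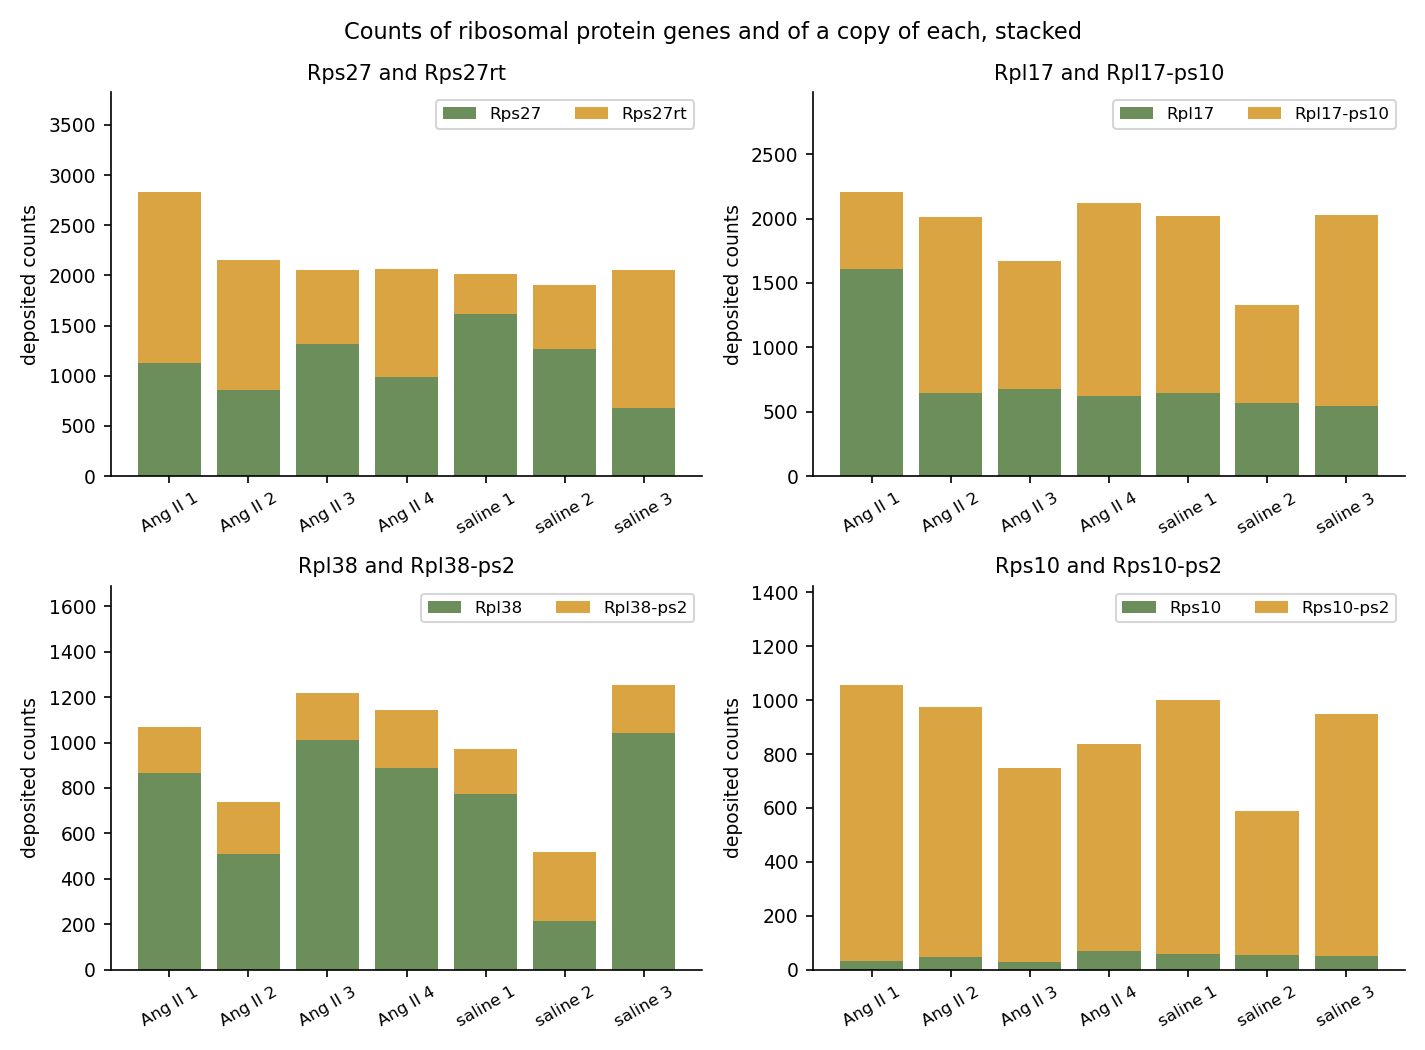
Deposited counts (y axis, from 0) in 7 libraries, Ang II left of saline, for Rps27 with Rps27rt, Rpl17 with Rpl17-ps10, Rpl38 with Rpl38-ps2 and Rps10 with Rps10-ps2, the gene in green and its copy stacked in yellow. The split moves between libraries within each group, as in Rps27rt at 19.97% to 67.0% of its pair in saline. In the Rps10 panel nearly all counts were assigned to Rps10-ps2.

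Paralogs whose symbols end in l or l1 had lower levels per length than their parents, as in Rpl7l1 at 11.6 and Rpl7 at 115 CPM per kilobase. Some of them share much sequence with other genes, with 59.0% of the 100-base windows of Rpl36al and 50.8% of those of Rpl22l1 found elsewhere. Rpl3l, which replaces Rpl3 in heart and skeletal muscle, had 6, 1, 37 and 2 counts in Ang II replicates 1 to 4, against 1, 0 and 4 counts in saline replicates 1 to 3. Its high library, Ang II replicate 3, was also the high library for the 4 skeletal muscle markers, at 113 CPM in sum against 3.61 to 14.8 CPM in the other 6 libraries, and the part of muscle RNA in this value was not tested. Of the genes active in the male germ line, Rpl10l had 0 counts in every library, which allows up to 3 counts in each, and Rpl39l had 1 count, in saline replicate 1. Rpl36al, overlapped by Gm49383 as given above, had 1 to 13 counts per library, and the part of this overlap was not tested. Its parent Rpl36a averaged 41.9 ± 0.430 CPM in Ang II and 39.8 ± 11.01 CPM in saline. Rpl22l1, which can stand in for Rpl22, was at 14.2, 13.9, 15.1 and 19.4 CPM in Ang II, against 14.7, 7.43 and 15.6 CPM in saline. Its log2 fold change was 0.31 ± 0.23, and 0.04 without saline replicate 2, while Rpl22 averaged 119 ± 7.07 CPM in Ang II and 116 ± 4.56 CPM in saline. Rpl7l1, a nucleolar paralog of Rpl7, averaged 41.1 ± 2.26 CPM in Ang II and 39.9 ± 5.31 CPM in saline. Its parent Rpl7 averaged 304 ± 16.6 CPM in Ang II and 317 ± 9.43 CPM in saline, and Rpl39 67.6 ± 4.70 CPM in Ang II and 65.9 ± 1.66 CPM in saline. The remaining untested members, Rpl9-ps1, Rpl13a-ps1 and Rpl36-ps4 with 0 counts everywhere and Rpl36a-ps1 with 0 to 3, are all pseudogene-type names.

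Beyond the groups, the members varied most between saline replicates 2 and 3. Of the tested members, 21 large-subunit and 12 small-subunit genes had their lowest level in saline replicate 2, where 23.19% of all tested genes had theirs. In saline replicate 3, 19 large-subunit and 18 small-subunit genes had their highest level, against 15.21% of all tested genes. Saline replicate 2 lay more than 0.5 on the log2 scale below the mean of the other 6 libraries for 13 of the 85 tested members, as it did for 12.7% of all tested genes. The 13 were Rpl38, Rpl7a, Rpl23a, Rpl22l1, Rpl28, Rpl35, Rpl11, Rps24, Rps15, Rpl36a, Rps28, Rps29 and Rpl30. It lay more than 0.5 above for Rpl10-ps3 and Rpl27-ps3. The 13 genes had a median transcript GC content of 52.8% and a median transcript length of 560 bases, against 50.7% and 729 bases for the other tested members. A median of 53.5% of their 100-base windows recurred in other genes, against 41.4% for the other tested members. The part of these traits in the low values was not tested.

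The 3 members farthest down in saline replicate 2 were Rpl38, Rpl7a and Rpl23a. Rpl7a, a large-subunit protein that binds ribosomal RNA, was at 49.8, 23.5, 59.7 and 40.7 CPM in Ang II replicates 1 to 4, against 58.2, 14.3 and 60.4 CPM in saline replicates 1 to 3. Ang II replicate 2 was low as well, and the log2 fold change of -0.03 ± 0.59 was -0.45 without saline replicate 2. Rpl23a, at the mouth of the exit tunnel, was at 67.8, 54.5, 80.0 and 64.6 CPM in Ang II, against 84.3, 21.9 and 50.1 CPM in saline. Its log2 fold change was 0.35 ± 0.46, and -0.01 without saline replicate 2. Over all libraries, copies held 31.9% of the counts of Rpl7a with its copies and 25.8% of those of Rpl23a, against 51.8% and 48.1% in saline replicate 2. For the copies with most counts, the deposited counts below are not scaled to library size, and saline replicate 2 was the shallowest library. Rpl7a-ps5 had 59 counts in saline replicate 2, against 78 to 127 counts in the others. Rpl23a-ps3 had 221 counts there, against 158 to 280 counts in the others. The part of copies in the low values of Rpl7a and Rpl23a was not tested. Rpl28 was lowest in saline replicate 2 as well, and its copies held 6.25% of its summed counts. It was at 121, 112, 135 and 133 CPM in Ang II, against 125, 62.4 and 141 CPM in saline, and its log2 fold change of 0.19 ± 0.27 was -0.09 without saline replicate 2.

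**Figure D4:**
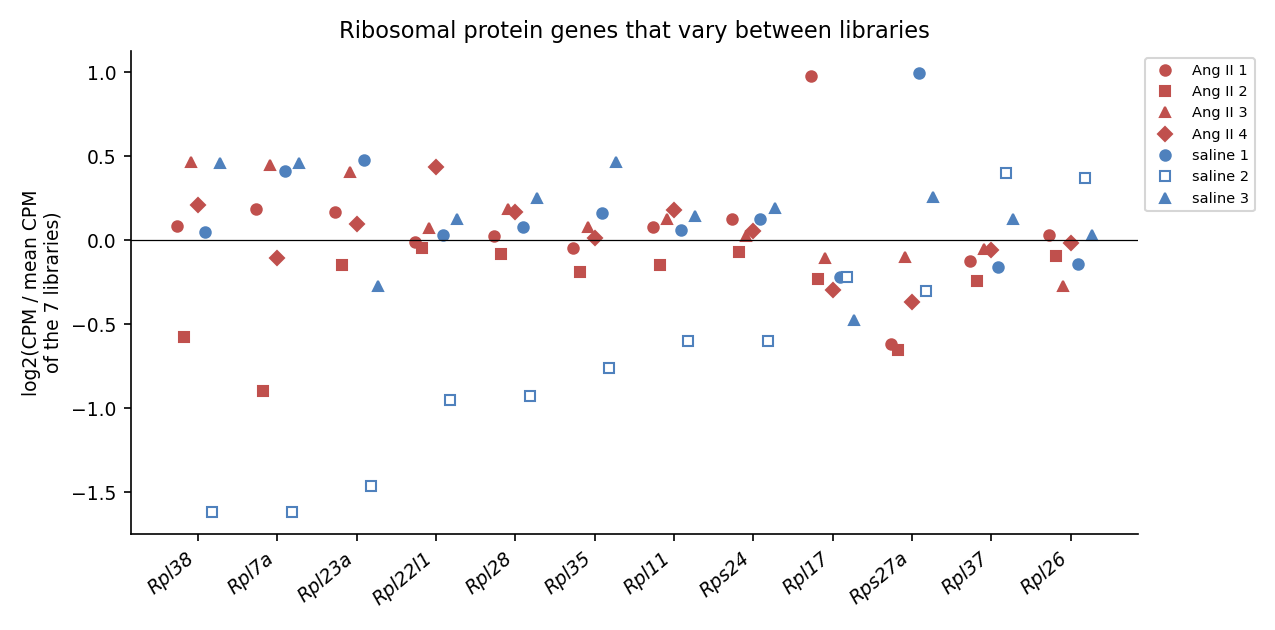
Log2 of CPM over the mean CPM of the 7 libraries (y axis) for 12 members, 1 marker per library, Ang II in red and saline in blue, with saline replicate 2 as open squares. The first 8 genes are those lowest in saline replicate 2, and Rpl17, Rps27a, Rpl37 and Rpl26 were added after their values were seen, Rpl17 and Rps27a for a single high library (Ang II replicate 1 and saline replicate 1) and Rpl37 and Rpl26 for a high saline replicate 2.

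The spread of the members as a whole was close to that of other genes of their level. The standard deviation of log2 CPM over the 7 libraries had a median of 0.14 for the 76 tested members with a mean of at least 20 CPM. It was also 0.14 for all 8266 tested genes above that floor. The steadiest member was Rpl7, at 0.07, and the least steady was Rpl7a, at 0.80. Members in which more than 50% of the 100-base windows of the transcript recur elsewhere among annotated transcripts had a median of 0.20 (40 genes), against 0.15 for the other 44. Spearman's rho between this shared percentage and the standard deviation was 0.31 over 84 members measured in the same 7 libraries, given as a description. Neither the split nor rho used the floor of 20 CPM, so level and sharing were not separated.

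Of the genes that work beside the ribosome, 0 were called in each of 6 lists. The 4 ribosomal protein genes named outside the pattern were all below 0, with a median log2 fold change of -0.13. Rpsa, a small-subunit protein also known as the laminin receptor, was at 327, 306, 289 and 306 CPM in Ang II, against 347, 383 and 362 CPM in saline. The groups did not overlap, and the log2 fold change was -0.25 ± 0.08 (unadjusted p = 0.0113, edgeR). Fau was at -0.14 ± 0.08 and Rack1, the signalling scaffold of the small subunit, at -0.11 ± 0.08. Of 18 elongation factors and other TOP mRNAs, 12 were below 0 and 6 above, with a median of -0.04, and Naca (-0.15 ± 0.08) and Eif3h (-0.15 ± 0.08) had the smallest p. The initiation factors, 21 in number, had a median of -0.04, with 14 below 0 and 7 above. Among them were Eif3a (0.22 ± 0.10) and Eif5 (0.14 ± 0.08).

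The genes for making ribosomal RNA and for assembling ribosomes also had medians near 0. The 14 genes of RNA polymerase I transcription had a median log2 fold change of -0.03, with Polr1e at -0.30 ± 0.17 and the terminator Ttf1 at 0.20 ± 0.12. The 34 assembly factors had a median of 0.01, with Noc2l at -0.23 ± 0.12 and the export adaptor Nmd3 at 0.25 ± 0.13. In the mTORC1 list, 13 of 24 genes were below 0 and 11 above, with a median of -0.02, and 4 had an unadjusted p under 0.05 (3 higher and 1 lower in Ang II), beside 4.62% of all genes tested. Castor1, the arginine sensor that restrains mTORC1, was at 5.73, 6.23, 4.55 and 3.74 CPM in Ang II, against 3.41, 2.45 and 3.67 CPM in saline. Its groups did not overlap, with a log2 fold change of 0.67 ± 0.26 (unadjusted p = 0.0208, adjusted p = 0.982, edgeR). Tsc2, part of the complex that holds mTORC1 off, was at 102, 122, 113 and 121 CPM in Ang II, against 134, 148 and 119.7 CPM in saline, with a log2 fold change of -0.22 ± 0.10 (unadjusted p = 0.0328, edgeR). Rps6kb1, the kinase that phosphorylates Rps6, was at 0.24 ± 0.11 (unadjusted p = 0.0450, edgeR).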

How the data were processed

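The authors deposited whole-number counts per gene, 1 column per library, with no normalization. The submitters' processing notes name CASAVA, HISAT2 2.0.5, featureCounts 1.5.0-p3 and the build mm10. How reads matching several genes were counted, and the strand setting, are not given in the sources used here. Per the labels' protocols the kit had no step that marks the strand, so overlapping and antisense genes cannot be told apart.

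Each count column carries the name in a sample's description, with 0 columns unmatched, and groups follow the treatment labels. Counts of 17078 genes that passed filterByExpr were scaled by TMM and tested with edgeR 4.0.16 (R 4.3.3; quasi-likelihood, robust, two-sided, group as sole term, all 7 libraries, Benjamini-Hochberg adjustment, threshold 0.05). The SE was obtained from the log2 fold change and its F statistic (absolute value over root F). CPM divides counts by the TMM-scaled library size, and 2 prior counts were added for log2 CPM. DESeq2 1.42.0 and limma 3.58.1 were alternatives. A copy is a gene annotated as a pseudogene (or a member with a -ps or rt symbol) with a transcript sharing at least 50 windows of 50 bases with a member. Each copy was assigned to the member it shares most with, and members with -ps or rt symbols were assigned none. Of the 93 members, 91 had a complete representative transcript (GENCODE M21, mm10). Adding copies, and summing Rps27 with Rps27rt, were chosen after seeing the data. Only the edgeR steps were tested on simulated counts, with planted changes larger than the log2 fold change of any tested member. Shares, copies and intervals were not simulated.

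The members and all gene lists were chosen with earlier results of these data known. Genes named are, per subunit, the 5 of smallest p and the 3 of highest and lowest level per length, plus stalk genes, genes with roles outside the ribosome, paralogs, pseudogene-type names and the 2 genes of smallest p per list. Rack1, Rps6kb1, Rpl10a and the members named for their copies or for single libraries (Rpl17, Rpl38, Rpl7a, Rpl23a, Rpl28, Rpl15, Rpl26, Rps4x) were added after their values were seen. A few genes chosen by these criteria are left out of the text.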

Additional observations from a re-analysis of the deposited data

Results flagged for a closer look

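In 5 of the 87 sets of Ang II values examined (85 tested members and the 2 subunit shares), 1 library lay far from the other 3 by Dixon's criterion at the 95% level. Chance alone flags about 1 in 20 such sets, and the 3 saline libraries are too few for the criterion. Rpl17 was at 91.1 CPM in Ang II replicate 1, against 37.7 to 43.0 CPM in the other Ang II libraries, and its pseudogene Rpl17-ps10 was lowest in the same library. Rpl15 was at 132 CPM in Ang II replicate 4, against 111 to 114 CPM in the other 3. Rpl21 was at 34.0 CPM in Ang II replicate 3, against 28.8 to 28.9 CPM. Rps4x was at 178 CPM in Ang II replicate 3, against 204 to 208 CPM, and Rps27l at 8.51 CPM in Ang II replicate 1, against 9.84 to 10.1 CPM. What lies behind these values was not tested.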

How the results depend on the processing

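The count of genes called moved from 0 to 98 with no filter on low counts (87 higher, 11 lower), 36 with DESeq2 (31 higher, 5 lower), 114 with limma-voom with quality weights (98 higher, 16 lower) and 57 with the replicate number as a block (53 higher, 4 lower). Leaving out single libraries gave 0 to 117, the 117 without saline replicate 3 (103 higher, 14 lower). Members among these calls were 0, apart from Rpl21 by limma-voom (adjusted p = 0.0257). The cause was not tested. The block left out Ang II replicate 4, and same-numbered libraries deviated from their group means with correlations of -0.07, -0.02 and 0.05, so the numbers do not pair the libraries. Both subunit medians and both shares moved by less than the spread between libraries under every alternative run, though signs changed. The large-subunit median did so without Ang II replicate 2, Ang II replicate 3 or saline replicate 3, and the small-subunit median without saline replicate 3. The difference in large-subunit share changed sign without saline replicate 2, and that in small-subunit share without saline replicate 3 or Ang II replicate 2. Library size alone took the large-subunit median to 0.026, still below the median of all genes, which it took to 0.042 (-0.0048 with TMM).

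Single genes were followed under the alternatives for 58 genes, drawn from the named members and list genes and not from all members. Of their 1033 values, 973 kept their sign and side of the threshold, 1 passed it (Rpl21) and 59, in 21 genes, changed sign, with no call on either side. With library size alone these were Rpl10 0.015, Rpl5 0.026, Rpl7a 0.015, Rplp0 0.0074 and Rps4x 0.028, all still below the 0.042 of all genes. With limma-voom they were Rpl10 0.053, Rpl11 -0.011, Rpl13a -0.24, Rpl23a -0.15, Rpl36a -0.0053, Rpl38 -0.10, Rpl7l1 -0.010, Rplp0 0.034, Rplp1 -0.067, Rps15 -0.16 and Rps4x 0.024. With the replicate block they were Rpl10-ps3 -0.016, Rpl13a -0.0094, Rpl7a 0.13, Rplp1 -0.028 and Rps3a1 -0.0043. With pseudogenes added they were Rpl7a 0.024 and Rps10 0.014, with sequence copies added Rpl7a 0.083, Rps10 0.016 and Rps27 0.095, and with Rps27rt summed Rps27 0.094. Leaving out single libraries gave a sign change in 18 genes, with ranges of -0.10 to 0.025 for Rpl10, -0.12 to 0.71 for Rpl10-ps3, -0.040 to 0.30 for Rpl11, -0.056 to 0.24 for Rpl13a, -8.9e-05 to 0.069 for Rpl22, -0.012 to 0.89 for Rpl23a, -0.092 to 0.42 for Rpl28, -0.13 to 0.25 for Rpl36a, -0.18 to 0.65 for Rpl38, -0.00057 to 0.082 for Rpl39, -0.11 to 0.011 for Rpl4, -0.090 to 0.055 for Rpl5, -0.45 to 0.26 for Rpl7a, -0.056 to 0.14 for Rpl7l1, -0.044 to 0.067 for Rplp1, -0.22 to 0.19 for Rps15, -0.043 to 0.078 for Rps3a1 and -0.071 to 0.060 for Rps4x.

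With 4 and 3 libraries, and saline replicates 2 and 3 at opposite ends, the 95% interval lay within 1.5-fold either way for 66 members and reached past it for 19, so that smaller differences remain possible in all. Copies that share long windows limit what counts of single members can show.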
